A study of Homo sapiens with 12 samples.

Results

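The human genome's integrin, laminin and collagen genes, with 3 more genes of cell to matrix contact, were followed in T47D breast carcinoma cells under a progestin. Members were taken by symbol: integrin alpha and beta subunits, laminin alpha, beta and gamma chains, collagen chains, and NPNT, FN1 and DAG1. The rule found 85 of the 20114 symbols in the count table, of which 26 were integrins, 12 laminins and 44 collagens. The rule uses symbols and no measured value, but it was set with earlier results of these data known. T47D is an established line that carries the progesterone receptor, and a progestin is a ligand of that receptor. Attached cells were held in medium nearly free of serum, which was stripped of steroids, and then given vehicle, 100 pM progestin or 10 nM progestin for 6 h or 18 h. The labels do not name the progestin. Each of the 6 groups had 2 RNA sequencing libraries, replicates 1 and 3, written below as vehicle 1 or 10 nM 3. The series title asks whether cells answer different progestin levels with different outputs, so each dose is set against vehicle and the doses against each other.

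Integrins are receptors made of an alpha and a beta subunit that tie the matrix outside a cell to its actin or keratin filaments. Laminins are trimers of an alpha, a beta and a gamma chain and form, with collagen IV, the basement membrane sheet on which breast epithelium rests. Collagens are triple helices of the same or related chains, and the fibrillar ones build the stroma, where fibroblasts make most of them. In breast, contact with laminin through integrins and dystroglycan is known to hold luminal cells polarised and to be needed for milk protein expression. An integrin dimer or a laminin or collagen trimer needs all of its chains, so the RNA of 1 chain is not a measure of the protein.

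Libraries held 34204970 to 41373890 counts, and 0.274% to 0.454% of them fell on the 85 members. All 9 luminal markers of T47D were present, with a summed level of 5332 to 11800 CPM (counts scaled to library size, with TMM factors), which was 7008 to 7038 CPM at 10 nM for 6 h and 5332 to 5423 CPM at 10 nM for 18 h, against 11140 to 11800 CPM in vehicle. Markers of other cell types were low. The 7 fibroblast markers summed to 1.38 to 1.69 CPM at 10 nM, against 4.45 to 5.31 CPM in vehicle. TWIST1, which ran from 0.443 to 4.94 CPM over the libraries, made up most of the larger sums. Each other fibroblast marker reached at most 0.671 CPM, so the sum does not show a fall of the markers as a set. The 6 immune markers summed to 2.85 to 5.56 CPM, the 5 endothelial markers, 4 of them in the table, to at most 0.927 CPM, and the 5 basal markers to 3.34 to 13.2 CPM, highest at 10 nM for 18 h. Over the libraries KRT5 ran from 0 to 7.02 CPM, TP63 from 0.282 to 3.30 and ACTA2 from 2.20 to 5.41. The basal markers KRT14 and MYH11 stayed at or under 0.3895 CPM, so the basal sum does not show a rise of the markers as a set. Luminal markers ranged unequally too, from 327.7 to 2111 CPM for PGR and from 757.7 to 1085 CPM for CDH1. No marker in the table was at 0 in all 12 libraries, and the part of these shifts in the results below was not tested. In bulk RNA fewer cells of a type and less RNA per cell cannot be told apart. The labels leave unsaid if replicates 1 and 3 were separate cultures, so a p-value reflects the spread among these libraries alone, which may be technical.

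Per kilobase of exon, the members with the highest mean level over the 12 libraries were DAG1 (71.2 CPM per kilobase), a laminin receptor, ITGB1 (59.5), the beta subunit shared by most matrix integrins, and the laminin chains LAMB2 (52.7) and LAMA5 (47.4). ITGB4 (27.3), the beta subunit of hemidesmosomes, COL12A1 (22.9), a collagen that decorates fibrils, and ITGAV (15.3) followed. Of the 85 members 61 had counts enough to be tested: 20 integrins, 8 laminins, 30 collagens and NPNT, FN1 and DAG1. The other 24 reached at most 11 counts in any library and COL8A1 had none. Several of them are partners of tested chains. COL1A2, which with COL1A1 makes type I collagen, had 1 count in all libraries together, COL4A2, the partner of COL4A1, had at most 6 counts, and ITGA8, the alpha subunit that binds nephronectin, 1 count in all.

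**Figure D1:**
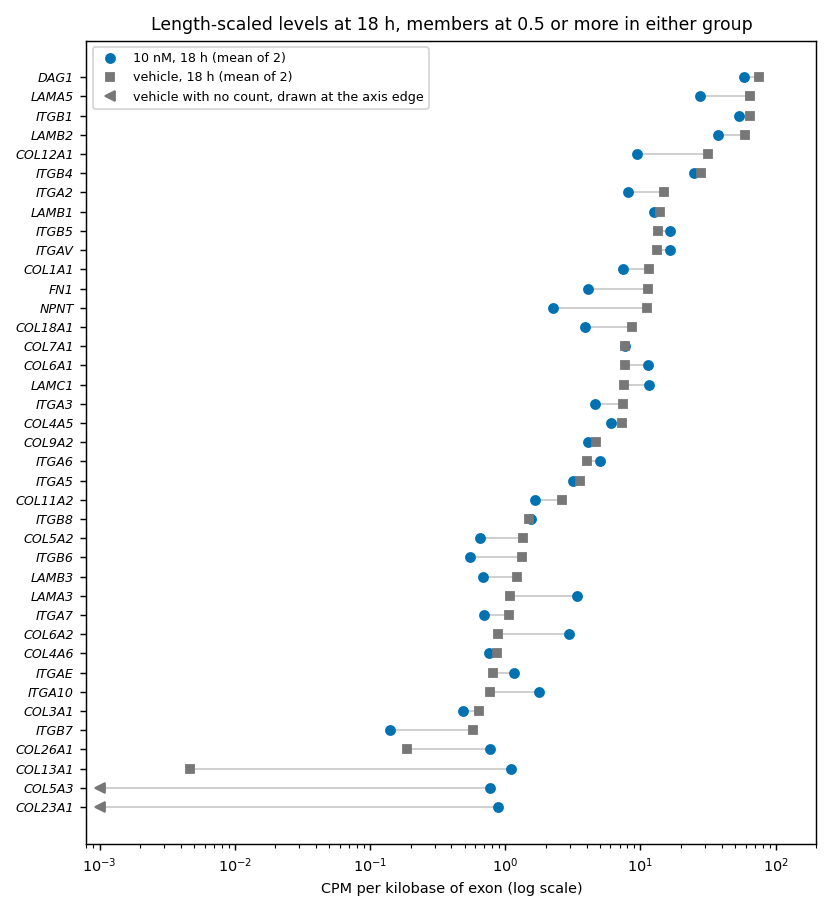
Mean level at 18 h of the 39 members that reached 0.5 CPM per kilobase of exon in either group (log scale): circles are 10 nM, squares vehicle, each the mean of 2 libraries, and triangles at the left edge are vehicle groups with no count. LAMA5, COL12A1, FN1 and NPNT lie lower at 10 nM, LAMA3 and COL6A2 higher, and COL5A3 and COL23A1 have no count in vehicle.

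At each time the summed level of the laminin genes was lowest at 10 nM, and so was that of the collagen genes. The CPM of the 12 laminin genes summed to 1459 to 1547 in the 4 vehicle libraries, 1376 and 1484 at 100 pM for 6 h, 1186 and 1218 at 100 pM for 18 h, 996.5 and 1038 at 10 nM for 6 h, and 925.2 and 880.1 at 10 nM for 18 h. The 44 collagen genes summed to 804.2 to 968.9 in vehicle, 844.1 and 783.2 at 100 pM for 6 h, 605 and 567.8 at 100 pM for 18 h, 713.7 and 646.6 at 10 nM for 6 h, and 555.4 and 516.2 at 10 nM for 18 h. Integrin sums overlapped, with 897.8 to 1010 at 10 nM and 943.9 to 1134 in vehicle. These are sums over unequal genes, in which LAMA5 and LAMB2 make up most of the laminins and COL12A1 is the largest collagen.

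edgeR's quasi-likelihood F test called a gene at a Benjamini-Hochberg adjusted p under 0.05 over all 13872 genes tested, and every fold change below is on the log2 scale, given ± its standard error. It called at 10 nM for 6 h 8 members higher and 16 lower than vehicle, 39.3% of the 61 tested, where 42.0% of all tested genes were called, 22.6% higher and 19.4% lower. The counts at 10 nM for 18 h were 13 higher and 17 lower, 49.2% of members against 34.1% of all genes, 19% higher and 15.2% lower. At 100 pM for 6 h 1 member was higher (1.64%, against 3.48% of all genes, 2.88% higher), and at 100 pM for 18 h 2 were higher and 6 lower (13.1%, against 10.5%, 6.57% higher and 3.89% lower). Between the doses, 10 nM against 100 pM, 6 were higher and 14 lower at 6 h (32.8%, against 37.0%, 20.1% higher and 16.8% lower), and 10 were higher and 13 lower at 18 h (37.7%, against 26.2%, 14.8% higher and 11.4% lower). Among the members higher at 10 nM, 4 at 6 h and 5 at 18 h passed the count filter only through 10 nM libraries (COL5A3, COL13A1, COL23A1, LAMC3 and, at 18 h, LAMA2). These shares differ from those of all genes in both directions and were not tested against them.

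At 10 nM for 18 h the median absolute log2 fold change of the 61 members was 0.85, and 0.34 over all genes tested. At 10 nM for 6 h the medians were 0.61 and 0.42. The signed median over members was -0.39 at 6 h and -0.19 at 18 h at 10 nM, against -0.020 and -0.002 over all genes. Setting genes with no count in vehicle to their lower bound could not move these medians of members from -0.39 and -0.19, since the bounds lie above them. Without vehicle 1 or vehicle 3 at 18 h, the 30 members called at 10 nM for 18 h became 17 or 18, and without 10 nM 3 or vehicle 3 at 6 h, the 24 called at 10 nM for 6 h became 16. Without vehicle 1 at 18 h the 8 members called at 100 pM for 18 h became 4, and without 10 nM 1 at 18 h the 23 called between the doses at 18 h became 15. Each of these fits leaves a compared group with 1 library, and fewer were called over all genes too. Vehicle at 18 h against vehicle at 6 h gave 0 called members by edgeR and DESeq2, and 0 at an unadjusted p under 0.05 by edgeR.

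**Figure D2:**
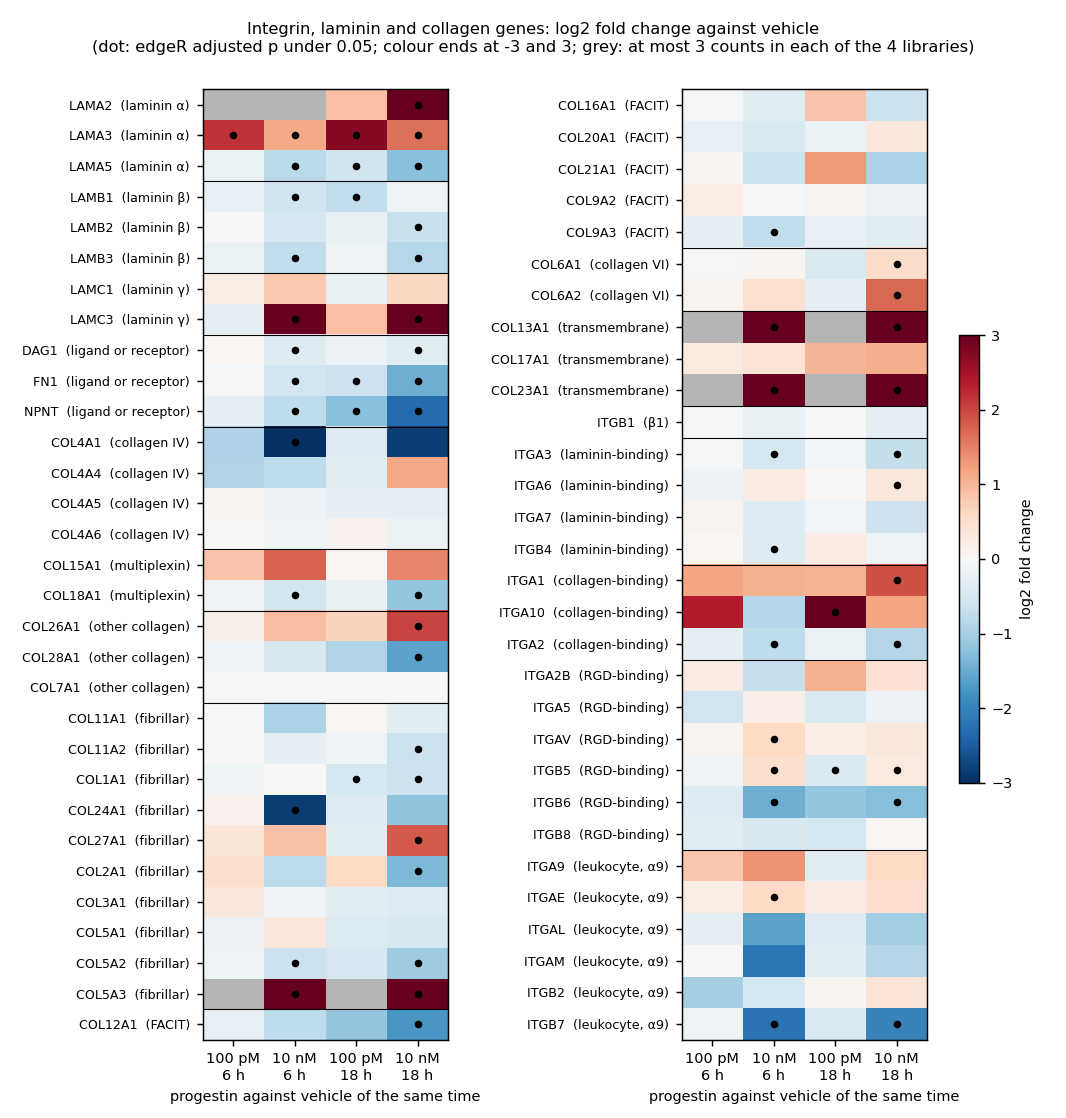
Log2 fold change of each tested member against vehicle of the same time, with columns for 100 pM and 10 nM at 6 h and 18 h and rows grouped by role. Dots mark an edgeR adjusted p under 0.05, colours end at -3 and 3, and grey fields had at most 3 counts in each of the 4 libraries; LAMA3 is the row with a dot in all 4 columns.

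Laminin alpha chains moved in opposite directions. LAMA5, the main alpha chain of mature epithelial basement membranes, was lower with each step of dose. At 6 h LAMA5 had 870.0 and 873 CPM in vehicle, 744 and 773 CPM at 100 pM and 509.6 and 487 CPM at 10 nM. At 18 h LAMA5 had 962 and 889 CPM in vehicle, 612 and 619 CPM at 100 pM and 422 and 360.2 CPM at 10 nM. At both times the 3 doses did not overlap, and the 10 nM libraries were lowest. LAMA5 fell at 10 nM (-0.81 ± 0.09 at 6 h and -1.24 ± 0.09 at 18 h, edgeR adjusted p 0.000196 and 2.58e-05) and at 100 pM for 18 h (-0.59 ± 0.09, edgeR adjusted p 0.00523), and not by the test at 100 pM for 6 h (-0.20 ± 0.09, edgeR adjusted p 0.455). The step between doses was called too (-0.61 ± 0.09 at 6 h and -0.66 ± 0.09 at 18 h, edgeR adjusted p 0.0011 and 0.0011, 10 nM against 100 pM). LAMA5 lost its call at 100 pM for 18 h with 18 h fitted alone (adjusted p 0.0563).

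LAMA3, the alpha chain of the laminin that anchors hemidesmosomes, was highest at the lower dose. At 6 h LAMA3 had 16.2 and 19.2 CPM in vehicle, 70.4 and 89.4 CPM at 100 pM and 37.6 and 40.8 CPM at 10 nM. At 18 h LAMA3 had 14.5 and 17.3 CPM in vehicle, 107 and 107 CPM at 100 pM and 49.0 and 50.5 CPM at 10 nM. At both times the 100 pM libraries lay above the 10 nM libraries, and those above vehicle, with no overlap. LAMA3 rose at 100 pM (2.17 ± 0.14 at 6 h and 2.75 ± 0.14 at 18 h, edgeR adjusted p 0.000102 and 5.19e-05) and less at 10 nM (1.15 ± 0.14 at 6 h and 1.65 ± 0.14 at 18 h, edgeR adjusted p 0.000234 and 4.48e-05), and 10 nM was lower than 100 pM (-1.03 ± 0.13 at 6 h and -1.10 ± 0.13 at 18 h, edgeR adjusted p 0.000488 and 0.000513). It was the only member called in all 6 of these comparisons, and each of the 6 calls held when any 1 of the 12 libraries was left out. Per kilobase of exon LAMA3 made up 1.45% to 2.09% of the alpha chain RNA in vehicle, 8.44% and 10.1% at 100 pM for 6 h, 14.5% and 14.4% at 100 pM for 18 h, 6.70% and 7.54% at 10 nM for 6 h, and 10.2% and 12% at 10 nM for 18 h. That share also contains the fall of LAMA5.

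The sequence before the RefSeq start of LAMA3 is shown because this is the member that answered the lower dose at both times. It was searched on both strands for AGAACA, the hexamer that the progesterone and glucocorticoid receptors bind, and for a loose form of their palindrome. That form fixes only part of the hexamer on each side of a spacer and leaves other bases free. It is therefore looser than a palindrome of full hexamers. Coordinates are RefSeq GRCh38.p14, while the counts were made on hg19 per the submitters' processing notes, and bases that GENCODE v29 places in an exon of the gene were left off. The RefSeq start lies inside the longer GENCODE gene, so it stands for a shorter transcript, and the counts do not tell the transcripts apart. Neither motif was in the 250 bases before that start.
LAMA3, chr18:23872770-23872839, plus strand: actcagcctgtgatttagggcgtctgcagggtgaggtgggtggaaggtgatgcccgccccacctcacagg

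LAMB3, the beta chain partner of LAMA3, was low and fell at 10 nM (-0.74 ± 0.25 at 6 h and -0.85 ± 0.25 at 18 h, edgeR adjusted p 0.0399 and 0.0281), and at 100 pM it was not called. At 6 h LAMB3 had 6.26 and 4.61 CPM in vehicle, 5.38 and 4.11 CPM at 100 pM and 3.63 and 2.88 CPM at 10 nM. At 18 h LAMB3 had 6.404 and 5.12 CPM in vehicle, 5.56 and 4.73 CPM at 100 pM and 3.62 and 2.78 CPM at 10 nM. The 10 nM libraries lay below vehicle without overlap at both times. LAMB2 is the beta chain of adult basement membranes. At 6 h LAMB2 had 378 and 475 CPM in vehicle, 375 and 469.9 CPM at 100 pM and 262 and 343 CPM at 10 nM. At 18 h LAMB2 had 370.4 and 448 CPM in vehicle, 332 and 375 CPM at 100 pM and 232 and 282 CPM at 10 nM. LAMB2 fell at 18 h (-0.67 ± 0.19, edgeR adjusted p 0.0249), and at 6 h the difference missed the threshold (-0.50 ± 0.19, edgeR adjusted p 0.0643), while at both times the 10 nM libraries lay below the vehicle libraries. LAMB2 lost its call at 10 nM for 18 h without 10 nM 1 or vehicle 3 (adjusted p 0.137 to 0.139). LAMB3 lost its call at 10 nM for 6 h without either 10 nM library, vehicle 1 or either 100 pM library at 18 h (adjusted p 0.0515 to 0.222), at 10 nM for 18 h without 10 nM 3 or vehicle 1 (adjusted p 0.138 to 0.152) and at 10 nM for 6 h with 6 h fitted alone (adjusted p 0.0664).

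LAMB1, the other main beta chain, changed order with time. At 6 h LAMB1 had 124 and 108 CPM in vehicle, 103 and 93.1 CPM at 100 pM and 82.7 and 69.4 CPM at 10 nM. At 18 h LAMB1 had 118 and 108 CPM in vehicle, 67.5 and 67.6 CPM at 100 pM and 101 and 104 CPM at 10 nM. At 6 h the libraries stepped down with dose, whereas at 18 h the 100 pM libraries were lowest and the 10 nM libraries lay close under vehicle. LAMB1 fell at 10 nM for 6 h (-0.61 ± 0.11, edgeR adjusted p 0.00194) and at 100 pM for 18 h (-0.74 ± 0.11, edgeR adjusted p 0.00358), and at 18 h it was higher at 10 nM than at 100 pM (0.60 ± 0.11, edgeR adjusted p 0.00373), the opposite of 6 h (-0.37 ± 0.11, edgeR adjusted p 0.0255). At 10 nM for 18 h it was not called (-0.14 ± 0.11, edgeR adjusted p 0.339), and the difference between times at 10 nM did not pass the test (0.47 ± 0.15, edgeR adjusted p 0.0859). LAMB1 lost its call between doses at 6 h without 10 nM 3 or either 100 pM library (adjusted p 0.0506 to 0.154) and between doses at 6 h with 6 h fitted alone (adjusted p 0.059).

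LAMC1, the gamma chain of most laminins, made up at least 98.6% of the gamma chain RNA per kilobase of exon in every library. At 6 h LAMC1 had 64.8 and 47.7 CPM in vehicle, 77.0 and 54.2 CPM at 100 pM and 100.4 and 93.0 CPM at 10 nM. At 18 h LAMC1 had 75.9 and 50.9 CPM in vehicle, 62.5 and 45.4 CPM at 100 pM and 116 and 79.6 CPM at 10 nM. The 10 nM libraries lay above the vehicle libraries at both times, and the differences missed the threshold (0.78 ± 0.28 at 6 h and 0.63 ± 0.28 at 18 h, edgeR adjusted p 0.0525 and 0.121). Replicate 1 of LAMC1 was 1.08 to 1.49 times replicate 3 in all 6 groups, and this spread enters the test. LAMC3, a gamma chain known from nerve and retina, and LAMA2, the alpha chain of muscle laminin, were low without 10 nM progestin. They fall below the level set for naming genes and were picked after their values were seen. LAMC3 had 0.717 and 0.674 CPM at 10 nM for 18 h, against 0.0280 and 0.0271 CPM in vehicle, a ratio of 25.3 with a counting interval of 6.64 to 215. LAMA2 had 0.516 and 0.393 CPM at 10 nM for 18 h, against 0.0280 and 0.0542 CPM in vehicle, 11.0 times as much with an interval of 3.44 to 56.2. At 6 h LAMC3 had 0.886 and 1.19 CPM at 10 nM, against 0.203 and 0.0256 CPM in vehicle. Both genes passed the count filter only through 10 nM libraries, where they were high, so edgeR's calls of them lend no support.

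Nephronectin, fibronectin and dystroglycan all fell at 10 nM at both times. NPNT, a basement membrane ligand of an integrin whose alpha subunit, ITGA8, had 1 count here, showed the largest fall of the 3. At 6 h NPNT had 65.1 and 70.05 CPM in vehicle, 56.1 and 56.9 CPM at 100 pM and 40.9 and 38.8 CPM at 10 nM. At 18 h NPNT had 70.4 and 66.8 CPM in vehicle, 27.8 and 29.3 CPM at 100 pM and 14.1 and 13.7 CPM at 10 nM. The 3 doses were separate at each time, with 10 nM lowest. NPNT fell at 10 nM (-0.76 ± 0.07 at 6 h and -2.30 ± 0.08 at 18 h, edgeR adjusted p 8.01e-05 and 1.08e-06) and at 100 pM for 18 h (-1.26 ± 0.07, edgeR adjusted p 6.64e-05), with -0.26 ± 0.07, edgeR adjusted p 0.125 at 100 pM for 6 h. Between doses it was lower at 10 nM (-0.50 ± 0.07 at 6 h and -1.04 ± 0.08 at 18 h, edgeR adjusted p 0.000893 and 4.04e-05). Its mean at 10 nM for 18 h was 13.9 ± 0.250 CPM, against 68.6 ± 2.53 CPM in vehicle (SD, n = 2 each). These calls were kept with any 1 library left out.

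FN1 encodes fibronectin, a fibril protein bound by RGD integrins. At 6 h FN1 had 201 and 183 CPM in vehicle, 190.4 and 179.5 CPM at 100 pM and 136 and 121 CPM at 10 nM. At 18 h FN1 had 206 and 187 CPM in vehicle, 125 and 132 CPM at 100 pM and 79.5 and 62.9 CPM at 10 nM. At 6 h vehicle and 100 pM overlapped and 10 nM lay below both, while at 18 h all 3 doses were separate. FN1 fell at 10 nM (-0.58 ± 0.12 at 6 h and -1.47 ± 0.12 at 18 h, edgeR adjusted p 0.00501 and 4.67e-05) and at 100 pM for 18 h (-0.61 ± 0.12, edgeR adjusted p 0.0153). DAG1, dystroglycan, had the highest level of the members per kilobase of exon. At 6 h DAG1 had 532 and 581 CPM in vehicle, 572 and 589 CPM at 100 pM and 422 and 432 CPM at 10 nM. At 18 h DAG1 had 503 and 542 CPM in vehicle, 487 and 438 CPM at 100 pM and 399 and 414 CPM at 10 nM. At both times the 10 nM libraries lay below vehicle, and the falls were small (-0.38 ± 0.09 at 6 h and -0.36 ± 0.09 at 18 h, edgeR adjusted p 0.00715 and 0.0114). DAG1 lost its call at 10 nM for 6 h without vehicle 3 (adjusted p 0.0593) and at 10 nM for 18 h without 10 nM 1 or vehicle 3 (adjusted p 0.066 to 0.0817). FN1 lost its call at 100 pM for 18 h without either 100 pM library or vehicle 1 (adjusted p 0.0645 to 0.109) and at 100 pM for 18 h with 18 h fitted alone (adjusted p 0.0768).

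**Figure D3:**
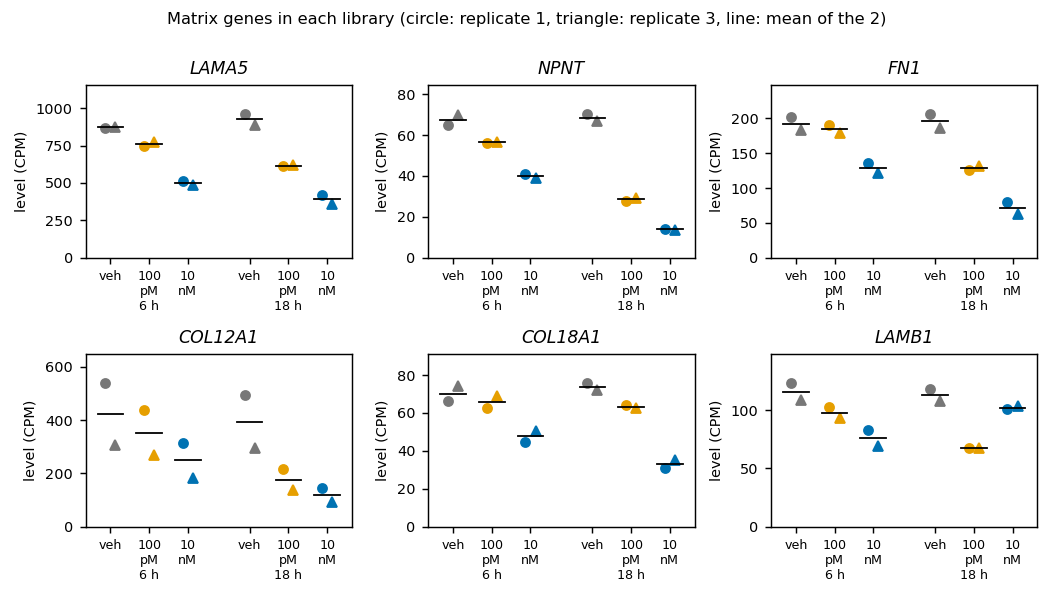
Level (CPM, linear axis from 0) of LAMA5, NPNT, FN1, COL12A1, COL18A1 and LAMB1 in each library, with vehicle, 100 pM and 10 nM at 6 h and then 18 h. Circles are replicate 1, triangles replicate 3 and lines the mean of the 2; the means of the first 5 genes step down with dose at 18 h and LAMB1 is lowest at 100 pM for 18 h.

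Of the 30 collagens tested, 3 were higher and 5 lower at 10 nM for 6 h, and 7 were higher and 7 lower at 10 nM for 18 h. Of all genes 42.0% and 34.1% were called. The 3 higher at 6 h were COL5A3, COL13A1 and COL23A1, which were also among the 7 at 18 h. They passed the count filter only through 10 nM libraries, so edgeR's calls of them lend no support. Of the 10 fibrillar chains tested, 1 was higher and 2 lower at 10 nM for 6 h, and 2 were higher and 4 lower at 18 h. COL5A3 was the 1 at 6 h and was among the higher at 18 h. COL5A2, a chain of the collagen that starts fibrils, fell at both times (-0.66 ± 0.16 at 6 h and -1.07 ± 0.16 at 18 h, edgeR adjusted p 0.0102 and 0.00112). At 6 h COL5A2 had 9.67 and 10.6 CPM in vehicle, 8.76 and 9.31 CPM at 100 pM and 6.48 and 6.38 CPM at 10 nM. At 18 h COL5A2 had 10.2 and 10.1 CPM in vehicle, 6.10 and 8.16 CPM at 100 pM and 4.48 and 5.20 CPM at 10 nM. COL5A2 was lower in the 10 nM libraries than in vehicle, without overlap, at both times. COL11A2 is a related fibrillar chain. At 6 h COL11A2 had 18.4 and 20.4 CPM in vehicle, 15.9 and 23.0 CPM at 100 pM and 14.1 and 17.7 CPM at 10 nM. At 18 h COL11A2 had 16.9 and 18.6 CPM in vehicle, 13.8 and 18.6 CPM at 100 pM and 10.4 and 12.1 CPM at 10 nM. The 10 nM libraries lay below vehicle at both times. COL11A2 fell at 18 h (-0.66 ± 0.21, edgeR adjusted p 0.0416), and it was not called at 6 h (-0.29 ± 0.21, edgeR adjusted p 0.3). COL11A2 lost its call at 10 nM for 18 h without either 10 nM library, either vehicle library, 10 nM 3 at 6 h or either vehicle library at 6 h (adjusted p 0.0543 to 0.181) and at 10 nM for 18 h with 18 h fitted alone (adjusted p 0.0521). COL5A2 lost its call at 10 nM for 6 h without 10 nM 3 or vehicle 3 (adjusted p 0.0638 to 0.0645).

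COL1A1, the main chain of fibrillar collagen I, was close to vehicle at 6 h and lower at 18 h at both doses. At 6 h COL1A1 had 105 and 109.7 CPM in vehicle, 92.7 and 104 CPM at 100 pM and 108 and 105 CPM at 10 nM. At 18 h COL1A1 had 114 and 111 CPM in vehicle, 81.3 and 75.9 CPM at 100 pM and 79.8 and 66.1 CPM at 10 nM. At 6 h the 10 nM libraries overlapped vehicle, and at 18 h both treated groups lay below vehicle. COL1A1 fell at 10 nM for 18 h (-0.63 ± 0.10, edgeR adjusted p 0.0015) and at 100 pM for 18 h (-0.52 ± 0.10, edgeR adjusted p 0.0134), with -0.01 ± 0.10, edgeR adjusted p 0.928 at 10 nM for 6 h. The sum of the fibroblast markers was 1.605 to 1.693 CPM at 10 nM for 6 h, against 5.113 to 5.276 CPM in vehicle. At 18 h it was 1.377 to 1.601 CPM at 10 nM, against 4.446 to 5.307 CPM in vehicle. That sum was lower at both times, while COL1A1 at 10 nM was lower at 18 h and close to vehicle at 6 h. TWIST1 ran from 0.443 to 4.94 CPM, and each other marker of that list reached at most 0.671 CPM. The part of these markers in the collagen results was not tested. COL1A1 lost its call at 100 pM for 18 h without 100 pM 3 or either vehicle library (adjusted p 0.0618 to 0.0863) and at 100 pM for 18 h with 18 h fitted alone (adjusted p 0.072).

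COL12A1 belongs to the FACIT collagens, which sit on fibril surfaces, and had the highest level of the collagens. At 6 h COL12A1 had 539.6 and 305 CPM in vehicle, 438 and 268 CPM at 100 pM and 316 and 181 CPM at 10 nM. At 18 h COL12A1 had 495 and 294 CPM in vehicle, 214 and 138 CPM at 100 pM and 144 and 91.6 CPM at 10 nM. At 18 h both treated groups lay below vehicle and overlapped each other, and replicate 1 was 1.56 to 1.77 times replicate 3 in all 6 groups. COL12A1 fell at 10 nM for 18 h (-1.74 ± 0.45, edgeR adjusted p 0.0163), and the difference at 100 pM for 18 h missed the threshold (-1.16 ± 0.44, edgeR adjusted p 0.137), as did that at 10 nM for 6 h (-0.77 ± 0.44, edgeR adjusted p 0.195). Of the other 5 FACIT chains tested, COL9A3 was lower at 10 nM for 6 h (-0.73 ± 0.21, edgeR adjusted p 0.0206), and COL9A2, COL16A1, COL20A1 and COL21A1 were not called against vehicle. COL12A1 lost its call at 10 nM for 18 h without 10 nM 3 or vehicle 1 (adjusted p 0.0933 to 0.0959). COL9A3 lost its call at 10 nM for 6 h without either 10 nM library or either vehicle library (adjusted p 0.0523 to 0.114).

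COL18A1, a basement membrane collagen that yields endostatin, fell at 10 nM at both times. At 6 h COL18A1 had 66.1 and 74.2 CPM in vehicle, 62.7 and 68.7 CPM at 100 pM and 44.6 and 50.7 CPM at 10 nM. At 18 h COL18A1 had 75.8 and 71.9 CPM in vehicle, 64.3 and 62.4 CPM at 100 pM and 31.1 and 35.3 CPM at 10 nM. At each time the 10 nM libraries lay below all others. The falls at 10 nM were called (-0.56 ± 0.10 at 6 h and -1.15 ± 0.10 at 18 h, edgeR adjusted p 0.00239 and 6.09e-05), and the differences at 100 pM were not (-0.10 ± 0.10 at 6 h and -0.22 ± 0.10 at 18 h, edgeR adjusted p 0.932 and 0.212). Its relative COL15A1 had at most 1.03 CPM and was not called. In collagen IV, COL4A5 (58.5 to 105 CPM) and COL4A6 (4.91 to 12.6 CPM) were the chains with a level, and neither was called in any comparison, nor was COL4A4. COL4A1, the chain of most basement membranes, had 3 counts at 10 nM for 6 h, against 38 in vehicle, a ratio of 0.0864 with a counting interval of 0.0171 to 0.272 (edgeR adjusted p 0.0387). COL4A1 lost its call at 10 nM for 6 h without either 10 nM library, vehicle 3 or either 10 nM library at 18 h (adjusted p 0.0535 to 0.25) and at 10 nM for 6 h with 6 h fitted alone (adjusted p 0.0561).

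Collagen VI, a microfibril collagen next to basement membranes, rose at 10 nM for 18 h in both tested chains. At 6 h COL6A2 had 4.91 and 3.46 CPM in vehicle, 4.80 and 4.23 CPM at 100 pM and 7.11 and 4.40 CPM at 10 nM. At 18 h COL6A2 had 5.51 and 4.06 CPM in vehicle, 4.73 and 3.10 CPM at 100 pM and 23.3 and 8.46 CPM at 10 nM. The 10 nM 1 library at 18 h was the highest, well above 10 nM 3, and both lay above vehicle at 18 h, while at 6 h the groups overlapped. At 6 h COL6A1 had 44.7 and 38.6 CPM in vehicle, 40.9 and 39.0 CPM at 100 pM and 43.7 and 44.2 CPM at 10 nM. At 18 h COL6A1 had 42.9 and 39.1 CPM in vehicle, 33.3 and 27.4 CPM at 100 pM and 64.2 and 56.9 CPM at 10 nM. At 18 h the 10 nM libraries lay above all others, and at 6 h they overlapped vehicle. Both rose at 18 h (1.73 ± 0.47, edgeR adjusted p 0.0207 for COL6A2; 0.56 ± 0.12, edgeR adjusted p 0.00625 for COL6A1) and were above 100 pM (2.02 ± 0.47, edgeR adjusted p 0.0142; 1.0 ± 0.12, edgeR adjusted p 0.000461). COL6A3, the chain that completes the trimer, had at most 4 counts. COL7A1, the collagen of anchoring fibrils, had 67.5 to 103 CPM, and its log2 fold changes against vehicle were -0.01 to 0.02. COL6A1 lost its call at 10 nM for 18 h without vehicle 3 (adjusted p 0.0504). COL6A2 lost its call at 10 nM for 18 h without 10 nM 1 or either vehicle library (adjusted p 0.0609 to 0.157), between doses at 18 h without 10 nM 1 or 100 pM 3 (adjusted p 0.0913 to 0.0967) and at 10 nM for 18 h with 18 h fitted alone (adjusted p 0.0567).

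COL5A3, COL13A1 and COL23A1 were at or near 0 in vehicle and at 100 pM and came up at 10 nM. They too lie below the level set for naming genes and were picked after their values were seen. COL5A3, a further chain of the fibril-starting collagen, had 0.609 and 2.31 CPM at 10 nM for 6 h and 4.08 and 6.26 CPM at 10 nM for 18 h, and no count in the 8 other libraries. It was at least 19.1-fold higher at 6 h and at least 62.6-fold higher at 18 h than vehicle (floor of 3 counts per library). COL13A1, a transmembrane collagen of focal adhesions, had 2.08 and 3.38 CPM at 10 nM for 6 h and 6.54 and 6.46 CPM at 10 nM for 18 h, and at most 1 count in any library of the other groups. Its ratios to vehicle were 213 (counting interval 37.9 to 8470) at 6 h and 236 (65.0 to 1960) at 18 h. COL23A1, another transmembrane collagen, had 0.775 and 0.818 CPM at 10 nM for 6 h, a ratio of 62.4 (10.8 to 2510), and 3.42 and 3.23 CPM at 10 nM for 18 h, at least 40.2-fold above vehicle. The intervals are exact binomial ones at 95%, and with the floor they cover counting error only, since reads copied by PCR carry no molecular identifier. These 3 genes passed the count filter only through 10 nM libraries, where they were high, so edgeR's calls of them lend no support. DESeq2 did not call COL5A3, at adjusted p 0.192 for 6 h and 0.121 for 18 h against vehicle.

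**Figure D4:**
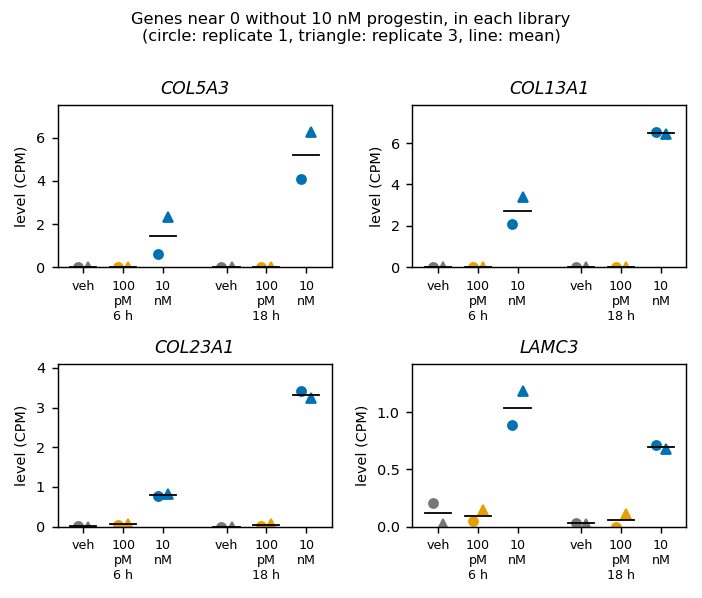
Level (CPM, linear axis from 0) of COL5A3, COL13A1, COL23A1 and LAMC3 in each library, by dose and time. Circles are replicate 1, triangles replicate 3 and lines the mean; the 10 nM libraries stand above all others in each panel, with COL5A3 between 0.609 and 6.26 CPM.

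The other called collagens stayed at or under 6.11 CPM. At 10 nM for 18 h COL26A1 (2.03 ± 0.50, edgeR adjusted p 0.013) and the fibrillar COL27A1 (1.84 ± 0.39, edgeR adjusted p 0.00691) were higher, and COL28A1 (-1.61 ± 0.44, edgeR adjusted p 0.021) and the cartilage chain COL2A1 (-1.35 ± 0.37, edgeR adjusted p 0.0208) were lower. The fibrillar COL24A1 (-2.84 ± 0.66, edgeR adjusted p 0.00791) was lower at 10 nM for 6 h. COL21A1, a FACIT chain, was called between doses at 18 h, lower at 10 nM (-2.23 ± 0.65, edgeR adjusted p 0.0352). COL3A1, COL5A1, COL11A1, COL17A1, COL9A2, COL16A1 and COL20A1 were called in no comparison. COL21A1 lost its call between doses at 18 h without either 10 nM library or 100 pM 3 (adjusted p 0.0689 to 0.187). COL24A1 lost its call at 10 nM for 6 h without vehicle 3 (adjusted p 0.0562). COL26A1 lost its call at 10 nM for 18 h without 10 nM 1 or either vehicle library (adjusted p 0.0605 to 0.0696). COL27A1 lost its call at 10 nM for 18 h without vehicle 1 (adjusted p 0.053). COL28A1 lost its call at 10 nM for 18 h without either 10 nM library or vehicle 3 (adjusted p 0.0501 to 0.122). COL2A1 lost its call at 10 nM for 18 h without 10 nM 1 or vehicle 3 (adjusted p 0.124 to 0.141) and at 10 nM for 18 h with 18 h fitted alone (adjusted p 0.0788).

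The bases before the start of COL13A1 and COL5A3 are shown since these members had no more than 1 count in any vehicle or 100 pM library and a clear level at 10 nM. The build, the motifs and the trimming are those given for LAMA3. Neither motif was in the 250 bases before the start of either gene.
COL13A1, chr10:69801656-69801866, plus strand: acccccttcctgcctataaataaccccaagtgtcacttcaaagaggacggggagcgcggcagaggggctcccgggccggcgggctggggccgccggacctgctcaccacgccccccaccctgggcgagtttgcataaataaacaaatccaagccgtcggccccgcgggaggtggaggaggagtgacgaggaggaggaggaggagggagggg
COL5A3, chr19:10010505-10010754, minus strand: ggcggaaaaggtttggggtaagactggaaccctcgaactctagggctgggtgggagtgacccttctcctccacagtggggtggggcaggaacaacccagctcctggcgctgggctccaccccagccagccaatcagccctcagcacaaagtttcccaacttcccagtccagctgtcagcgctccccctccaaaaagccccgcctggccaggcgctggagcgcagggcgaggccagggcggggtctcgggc

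Of the 20 integrin subunits tested, 3 were higher and 5 lower at 10 nM for 6 h, and 3 were higher and 4 lower at 10 nM for 18 h, where 42.0% and 34.1% of all genes were called. The shared subunit ITGB1 missed the threshold at each dose and time. At 6 h ITGB1 had 422 and 328 CPM in vehicle, 394 and 326 CPM at 100 pM and 348 and 299.5 CPM at 10 nM. At 18 h ITGB1 had 408 and 363 CPM in vehicle, 380.1 and 382 CPM at 100 pM and 336 and 308 CPM at 10 nM. Both 10 nM values at 18 h were below vehicle, and at 6 h the groups overlapped, with log2 fold changes at 10 nM of -0.21 ± 0.14 at 6 h and -0.26 ± 0.14 at 18 h, edgeR adjusted p 0.273 and 0.205.

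Of the 4 laminin-binding integrin subunits, ITGA3 and ITGB4 were lower and ITGA6 higher at 10 nM in at least 1 comparison. At each time 2 of the 4 were called at 10 nM against vehicle (50.0%), where 42.0% and 34.1% of all genes were. ITGA3, the alpha subunit of a laminin receptor at the basal surface, fell at 10 nM at both times. At 6 h ITGA3 had 72.1 and 65.9 CPM in vehicle, 72.3 and 59.8 CPM at 100 pM and 51.6 and 43.8 CPM at 10 nM. At 18 h ITGA3 had 81.4 and 65.2 CPM in vehicle, 79.3 and 59.7 CPM at 100 pM and 50.4 and 39.6 CPM at 10 nM. The 10 nM libraries lay below vehicle without overlap (-0.53 ± 0.19 at 6 h and -0.70 ± 0.19 at 18 h, edgeR adjusted p 0.047 and 0.0189). ITGB4, whose dimer with ITGA6 holds hemidesmosomes, fell at 10 nM for 6 h (-0.39 ± 0.09, edgeR adjusted p 0.00649). At 6 h ITGB4 had 185 and 189 CPM in vehicle, 204 and 182 CPM at 100 pM and 135 and 151 CPM at 10 nM. At 18 h ITGB4 had 193 and 185 CPM in vehicle, 232 and 218 CPM at 100 pM and 171 and 168 CPM at 10 nM. At both times 10 nM was lowest, and at 18 h 100 pM was highest. At 18 h 10 nM was below 100 pM (-0.41 ± 0.09, edgeR adjusted p 0.00832) but not called against vehicle (-0.16 ± 0.09, edgeR adjusted p 0.2). At 6 h ITGA6 had 25.5 and 24.7 CPM in vehicle, 23.6 and 20.7 CPM at 100 pM and 32.4 and 27.0 CPM at 10 nM. At 18 h ITGA6 had 25.9 and 26.5 CPM in vehicle, 26.0 and 27.8 CPM at 100 pM and 34.6 and 31.3 CPM at 10 nM. Its 10 nM libraries lay above vehicle at both times, called at 18 h (0.33 ± 0.11, edgeR adjusted p 0.0498) and not at 6 h (0.24 ± 0.11, edgeR adjusted p 0.116). ITGA7, an alpha subunit of muscle, was not called in any comparison. ITGA3 lost its call at 10 nM for 6 h without either 10 nM library or either vehicle library (adjusted p 0.0741 to 0.199) and at 10 nM for 18 h without 10 nM 3 or vehicle 1 (adjusted p 0.0943 to 0.118). ITGA6 lost its call at 10 nM for 18 h without either 10 nM library, either vehicle library, either 100 pM library at 6 h, either vehicle library at 6 h or either 100 pM library at 18 h (adjusted p 0.0623 to 0.22), at 10 nM for 18 h without the count filter (adjusted p 0.0749), at 10 nM for 18 h with DESeq2's size factors (adjusted p 0.052) and at 10 nM for 18 h with 18 h fitted alone (adjusted p 0.0749). ITGB4 lost its call at 10 nM for 6 h without 10 nM 1 (adjusted p 0.0546).

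Of the collagen-binding alpha subunits, the one with the highest level fell and a minor one peaked at the lower dose. ITGA2, the main collagen receptor of epithelia, fell at 10 nM at both times. At 6 h ITGA2 had 107 and 81.7 CPM in vehicle, 87.4 and 67.8 CPM at 100 pM and 62.5 and 48.7 CPM at 10 nM. At 18 h ITGA2 had 133 and 102 CPM in vehicle, 110.2 and 94.4 CPM at 100 pM and 64.3 and 62.8 CPM at 10 nM. The 10 nM libraries lay below vehicle without overlap (-0.77 ± 0.20 at 6 h and -0.89 ± 0.20 at 18 h, edgeR adjusted p 0.014 and 0.00892). ITGA10, a collagen receptor known from cartilage, was highest at 100 pM. At 6 h ITGA10 had 3.18 and 7.53 CPM in vehicle, 18.7 and 37.4 CPM at 100 pM and 1.63 and 4.17 CPM at 10 nM. At 18 h ITGA10 had 3.77 and 5.98 CPM in vehicle, 33.6 and 47.6 CPM at 100 pM and 8.55 and 13.8 CPM at 10 nM. The 100 pM libraries lay above all others of their time, and replicate 3 was 1.42 to 2.56 times replicate 1 in each of the 6 groups. ITGA10 rose at 100 pM by 18 h (3.05 ± 0.58, edgeR adjusted p 0.0131), while the difference at 100 pM for 6 h missed the threshold (2.39 ± 0.57, edgeR adjusted p 0.0637). It was lower at 10 nM than at 100 pM at both times (-3.27 ± 0.60 at 6 h and -1.86 ± 0.55 at 18 h, edgeR adjusted p 0.00299 and 0.0363), and not called at 10 nM against vehicle (-0.88 ± 0.58 at 6 h and 1.19 ± 0.56 at 18 h, edgeR adjusted p 0.259 and 0.137). ITGA10 lost its call at 100 pM for 18 h without 100 pM 3 or either vehicle library (adjusted p 0.059 to 0.11) and between doses at 18 h without either 10 nM library or either 100 pM library (adjusted p 0.0601 to 0.187). ITGA2 lost its call at 10 nM for 6 h without 10 nM 3 or vehicle 1 (adjusted p 0.0859 to 0.0936) and at 10 nM for 18 h without vehicle 1 (adjusted p 0.0624).

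Per kilobase of exon, ITGA10 made up 3.43% to 10.3% of the collagen-binding alpha subunit RNA in vehicle, 21.1% to 40.7% at 100 pM, 3.15% and 9.66% at 10 nM for 6 h, and 14.2% and 21.4% at 10 nM for 18 h. ITGA1, another of these receptors, had at most 1.24 CPM and rose at 10 nM for 18 h (1.91 ± 0.63, edgeR adjusted p 0.0454), and ITGA11 had at most 6 counts. Among the 61 members found in the RefSeq promoter table, the hexamer AGAACA was in the 250 bases before the start of 5 (8.2%), which were COL5A1, COL9A1, ITGA10, ITGA6 and ITGB6, and in 4350 of the 35116 promoters of the table (12.4%). The loose form of the palindrome was in none of the 61 and in 115 of all (0.327%). The stretch of ITGA10 is shown with its match in capitals, TGTTCT being the hexamer on the opposite strand, 212 bases before the start. A match of letters is a description, not a binding site. ITGA1 lost its call at 10 nM for 18 h without 10 nM 3, either vehicle library, either 100 pM library at 6 h, either vehicle library at 6 h or either 100 pM library at 18 h (adjusted p 0.0506 to 0.346), at 10 nM for 18 h without the count filter (adjusted p 0.0529) and at 10 nM for 18 h with 18 h fitted alone (adjusted p 0.0698).
ITGA10, chr1:145910190-145910300, minus strand: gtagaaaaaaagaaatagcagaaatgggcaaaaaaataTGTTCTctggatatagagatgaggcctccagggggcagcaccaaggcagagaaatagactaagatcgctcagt

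**Figure D5:**
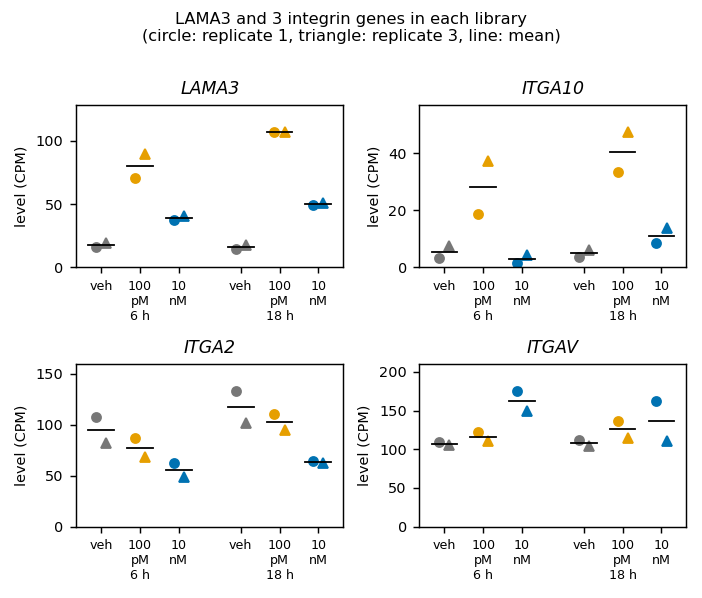
Level (CPM, linear axis from 0) of LAMA3 and of the integrin genes ITGA10, ITGA2 and ITGAV in each library, by dose and time. Circles are replicate 1, triangles replicate 3 and lines the mean; LAMA3 and ITGA10 are highest at 100 pM, and the means of ITGA2 step down and those of ITGAV step up with dose.

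The RGD-binding subunits recognise fibronectin and related ligands. Of the 6 tested, 2 were higher and 1 lower at 10 nM for 6 h, and 1 was higher and 1 lower at 18 h. These were 50.0% and 33.3% of the subunits, where 42.0% and 34.1% of all genes were called. ITGAV is the common alpha subunit. At 6 h ITGAV had 109 and 106 CPM in vehicle, 122 and 111 CPM at 100 pM and 175 and 149.6 CPM at 10 nM. At 18 h ITGAV had 112 and 104 CPM in vehicle, 136 and 115 CPM at 100 pM and 162 and 110.3 CPM at 10 nM. At 10 nM it rose at 6 h, without overlap (0.60 ± 0.17, edgeR adjusted p 0.0218), and was not called at 18 h, where the groups overlapped (0.33 ± 0.17, edgeR adjusted p 0.172). ITGB5, one of its beta partners, turned between doses. At 6 h ITGB5 had 85.9 and 88.4 CPM in vehicle, 85.4 and 76.9 CPM at 100 pM and 120.5 and 122 CPM at 10 nM. At 18 h ITGB5 had 88.3 and 86.7 CPM in vehicle, 63.2 and 66.1 CPM at 100 pM and 109 and 106 CPM at 10 nM. At 18 h the 100 pM libraries lay below vehicle and the 10 nM libraries above it. ITGB5 rose at 10 nM (0.48 ± 0.07 at 6 h and 0.29 ± 0.07 at 18 h, edgeR adjusted p 0.000819 and 0.0131) and fell at 100 pM for 18 h (-0.44 ± 0.07, edgeR adjusted p 0.00652), and 10 nM was above 100 pM (0.58 ± 0.07 at 6 h and 0.73 ± 0.07 at 18 h, edgeR adjusted p 0.000352 and 0.000175). ITGAV lost its call at 10 nM for 6 h without 10 nM 1 or either vehicle library (adjusted p 0.0724 to 0.124). ITGB5 lost its call at 100 pM for 18 h without vehicle 1 (adjusted p 0.0546), at 10 nM for 18 h without 10 nM 1 or either vehicle library (adjusted p 0.0575 to 0.0753), at 100 pM for 18 h with 18 h fitted alone (adjusted p 0.0507) and at 10 nM for 18 h with 18 h fitted alone (adjusted p 0.0512).

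ITGB6, the beta partner of ITGAV in epithelia that frees TGF-beta from its latent form, went the other way. It had 1.72 and 1.21 CPM at 10 nM for 6 h, against 4.73 and 3.41 CPM in vehicle, and 2.84 and 2.30 CPM at 10 nM for 18 h, against 7.44 and 4.98 CPM in vehicle. The groups did not overlap and ITGB6 fell (-1.47 ± 0.36 at 6 h and -1.27 ± 0.34 at 18 h, edgeR adjusted p 0.0102 and 0.0207). ITGB8, ITGA5 and ITGA2B were not called in any comparison. ITGAE and ITGB7, which pair into the receptor of intraepithelial lymphocytes for E-cadherin, differed in direction at 10 nM for 6 h. At 6 h ITGAE had 5.24 and 5.46 CPM in vehicle, 6.49 and 6.03 CPM at 100 pM and 7.003 and 9.20 CPM at 10 nM. At 18 h ITGAE had 4.75 and 6.07 CPM in vehicle, 5.69 and 7.23 CPM at 100 pM and 6.86 and 8.54 CPM at 10 nM. It rose at 10 nM for 6 h, without overlap (0.60 ± 0.21, edgeR adjusted p 0.0448), and was not called at 18 h, where 10 nM lay above vehicle too (0.51 ± 0.21, edgeR adjusted p 0.0914). ITGB7 had 0.554 and 0.536 CPM at 10 nM for 6 h, against 2.37 and 2.69 CPM in vehicle and 0.316 and 0.955 CPM at 10 nM for 18 h, against 2.38 and 2.79 CPM in vehicle, without overlap, and fell at both times (-2.21 ± 0.41 at 6 h and -2.02 ± 0.40 at 18 h, edgeR adjusted p 0.00251 and 0.0048). It too lies below the level set for naming genes. The leukocyte subunits ITGAL, ITGAM and ITGB2 reached at most 1.49 CPM and were not called, as was ITGA9, and the immune markers summed to at most 5.56 CPM. ITGAE lost its call at 10 nM for 6 h without 10 nM 3, either vehicle library, either 100 pM library at 6 h or 10 nM 3 at 18 h (adjusted p 0.0525 to 0.266), at 10 nM for 6 h without the count filter (adjusted p 0.0574) and at 10 nM for 6 h with 6 h fitted alone (adjusted p 0.0525). ITGB6 lost its call at 10 nM for 6 h without 10 nM 3 or vehicle 1 (adjusted p 0.0596 to 0.0697) and at 10 nM for 18 h without either 10 nM library or vehicle 1 (adjusted p 0.0594 to 0.128).

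Few members were called by the test of whether the progestin effect itself differed between 18 h and 6 h. A member not called was not shown to be alike at both times. At 10 nM this test called 4 members, all with a lower fold change at 18 h (6.56% of 61, against 10.5% of all genes, 4.55% higher and 5.99% lower). NPNT differed by -1.54 ± 0.11, edgeR adjusted p 0.000629, FN1 by -0.89 ± 0.17, edgeR adjusted p 0.0168, COL1A1 by -0.61 ± 0.14, edgeR adjusted p 0.0298 and COL18A1 by -0.59 ± 0.14, edgeR adjusted p 0.0348 on the log2 scale. At 100 pM NPNT was the 1 member called (-1.01 ± 0.10, edgeR adjusted p 0.0416; 1.64% of 61, against 0.0144% of all genes). COL18A1 lost its call between times at 10 nM without either 10 nM library at 6 h, either vehicle library at 6 h, 10 nM 1 at 18 h, either vehicle library at 18 h or either 100 pM library at 18 h (adjusted p 0.0501 to 0.116). COL1A1 lost its call between times at 10 nM without either 10 nM library at 6 h, either vehicle library at 6 h, 10 nM 3 at 18 h or either vehicle library at 18 h (adjusted p 0.0693 to 0.0949). FN1 lost its call between times at 10 nM without 10 nM 1 at 6 h, vehicle 3 at 6 h or vehicle 1 at 18 h (adjusted p 0.0595 to 0.069). NPNT lost its call between times at 100 pM without any library, whichever of the 12 was left out, (adjusted p 0.0874 to 0.311) and between times at 100 pM with DESeq2's size factors (adjusted p 0.0591). The 4 members became 1 without 10 nM 1 or vehicle 3 at 6 h or vehicle 1 at 18 h, and 2 without 10 nM 3 or vehicle 1 at 6 h or vehicle 3 at 18 h.

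Genes that work with these proteins were read from lists chosen for their function, with earlier results of these data known. They are to be set beside the 42.0% of all genes called at 10 nM for 6 h and the 34.1% for 18 h. Of 24 tested enzymes and helpers of collagen processing, 5 were higher and 1 lower at 10 nM for 6 h and 7 higher and 3 lower at 18 h (25% and 41.7%). The prolyl hydroxylase subunit P4HA2 (3.19 ± 0.28 at 6 h and 3.34 ± 0.28 at 18 h) and the crosslinking lysyl oxidase LOX (4.44 ± 0.40 at 6 h and 3.72 ± 0.40 at 18 h) rose, and PCOLCE (-0.80 ± 0.14 at 6 h and -0.83 ± 0.14 at 18 h), which aids the trimming of procollagen, fell. Of 26 integrin adaptors, 9 were higher and 2 lower at 6 h and 4 higher and 5 lower at 18 h (42.3% and 34.6%). Vinculin VCL (2.47 ± 0.18 at 6 h and 1.54 ± 0.18 at 18 h) and talin TLN2 (1.5 ± 0.15 at 6 h and 1.37 ± 0.15 at 18 h), which link integrins to actin, rose at both times, PXN (1.09 ± 0.12) rose at 6 h, and TNS4 (-1.18 ± 0.13) and FLNA (-1.21 ± 0.26) fell at 18 h. A further list held matrix receptors that are not integrins, with tetraspanins and hemidesmosome linkers. Of its 19 tested genes, 5 were higher and 2 lower at 6 h and 6 higher and 3 lower at 18 h (36.8% and 47.4%). The collagen receptor DDR1 (1.44 ± 0.15 at 6 h and 1.90 ± 0.15 at 18 h), the hyaluronan receptor CD44 (1.49 ± 0.23 at 6 h and 2.56 ± 0.24 at 18 h) and the tetraspanin CD9 (1.43 ± 0.09 at 6 h and 1.59 ± 0.09 at 18 h) rose, and the hemidesmosome linker DST (-2.41 ± 0.26 at 6 h and -1.76 ± 0.26 at 18 h) fell.

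Of 14 tested partners of dystroglycan, 3 were higher and 4 lower at 10 nM for 6 h and 2 higher and 6 lower at 18 h (50.0% and 57.1%). Utrophin UTRN (-1.05 ± 0.10 at 6 h and -1.53 ± 0.11 at 18 h) fell, dystrophin DMD fell at 18 h (-1.50 ± 0.09), the syntrophin SNTB2 (0.74 ± 0.10 at 6 h and 1.01 ± 0.10 at 18 h) rose, and LARGE (1.06 ± 0.10), which builds the laminin-binding sugar of dystroglycan, rose at 6 h. Of 12 tested metalloproteinases and inhibitors, 4 were higher and 2 lower at 6 h and 5 higher and 3 lower at 18 h (50.0% and 66.7%), among them MMP25 (2.87 ± 0.25 at 6 h and 3.26 ± 0.26 at 18 h) and MMP17 (2.06 ± 0.23 at 6 h and 1.41 ± 0.23 at 18 h), which rose, and TIMP1 (-1.02 ± 0.13), an inhibitor, which fell at 18 h. Of 10 matricellular genes, 2 were higher and 2 lower at 6 h and 3 higher and 1 lower at 18 h (40.0% at each time), with WISP2 (4.85 ± 0.52) higher and CTGF (-3.04 ± 0.45) lower at 18 h. Of 11 other basement membrane genes, 4 were higher and 1 lower at 6 h and 2 higher and 1 lower at 18 h (45.5% and 27.3%), with FBLN2 (4.06 ± 0.81) higher at 6 h and the heparan sulfate proteoglycan AGRN (-0.99 ± 0.16) lower at 18 h. The edgeR adjusted p of the genes named here and in the lists before ran from 5.81e-06 (CD9 at 6 h) to 0.00783 (FLNA at 18 h), and FLNA lost its call without vehicle 1 at 18 h (adjusted p 0.0523). At 6 h the 11 called adaptors became 6 and the 7 called dystroglycan partners became 4 without vehicle 3. The 4 called matricellular genes became 1, and the 5 other basement membrane genes became 2, without 10 nM 1 or vehicle 3. At 18 h the 9 called adaptors became 4 without vehicle 1, and without vehicle 3 the 8 called dystroglycan partners became 4 and the 8 metalloproteinases and inhibitors became 5. The 3 other basement membrane genes called at 18 h became 1 without 10 nM 1 or either vehicle library, and the 4 matricellular genes became 2 without 10 nM 1 at 6 h, 10 nM 3 or vehicle 3 at 18 h.

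Some members differed steadily between the replicate numbers. Of the 57 members with a count in every library, 13 were higher in replicate 3 and 10 higher in replicate 1 in all 6 groups. COL3A1, a fibrillar chain of soft tissue, was 5.23 to 11.0 times as high in replicate 3, and COL11A1 3.46 to 18.3 times. ITGAM, a myeloid integrin subunit at most at 0.951 CPM, was 2.94 to 18.4 times as high in replicate 1. COL3A1 and COL11A1 were not called in any comparison, and this spread enters their tests.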

How the data were processed

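Total RNA of T47D cells was sequenced as Nextera libraries, per the labels' protocols. The authors deposited whole-number counts per gene, made with STAR on hg19 per the submitters' processing notes, which also name DESeq2. The sources used here give no tool version, annotation or strand setting, so overlapping and antisense genes cannot be told apart. All 12 columns were used. In R 4.3.3, counts were scaled by TMM, filtered with filterByExpr and fitted over all 12 libraries with edgeR 4.0.16 (quasi-likelihood, robust, 6 residual degrees of freedom). Of 20114 genes 13872 were tested, and 2709 had no count. The code of the fit was also run on simulated counts with no replicate effect and few changed genes. That run does not test how the fit performs on these libraries. Values per kilobase use GENCODE v29 exon lengths. Alternatives were DESeq2 1.42.0, its size factors, no filter, the replicate number as a block, each time alone and each library left out. The members and lists were chosen with earlier results of these data known. Every library's values are given for called members whose average log2 CPM reached 2, and for 11 members fixed by name; from other lists up to 4 called genes per time were named by smallest adjusted p.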

Additional observations from a re-analysis of the deposited data

Results flagged for a closer look

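Progestin effects that differed between times by the test of the difference itself are listed here, as 18 h minus 6 h of the log2 fold change against vehicle. At 10 nM the difference was -1.54 ± 0.11 for NPNT (edgeR adjusted p 0.000629), -0.89 ± 0.17 for FN1 (edgeR adjusted p 0.0168), -0.61 ± 0.14 for COL1A1 (edgeR adjusted p 0.0298) and -0.59 ± 0.14 for COL18A1 (edgeR adjusted p 0.0348). At 100 pM it was -1.01 ± 0.10 for NPNT (edgeR adjusted p 0.0416). Of these 5, the difference of NPNT at 10 nM kept its call with any 1 library left out. The other 4 lost it without at least 1 library, and NPNT at 100 pM lost it without any 1 of the 12 (adjusted p 0.0874 to 0.311).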

How the results depend on the processing

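Of the 111 member calls over all comparisons, 106 were kept with DESeq2, 107 without the filter, 109 with DESeq2's size factors, 111 with the replicate block and 87 of 106 with each time fitted alone, and none reversed. With DESeq2, 4 of the 5 lost calls were those of COL5A3. With the replicate number as a block, edgeR called 38 members at 10 nM for 6 h (8662 of all 13872 genes), 5 at 100 pM for 6 h (1696), 36 between doses at 6 h (8231), 19 at 100 pM for 18 h (4728), 36 between doses at 18 h (6958), and 11 and 6 for the difference between times at 10 nM (4863) and 100 pM (777). The block also called ITGB1 lower (adjusted p 0.0368 at 6 h and 0.015 at 18 h) and LAMC1 higher (1.7e-05 and 0.000153) at 10 nM at both times, and LAMB2 lower at 10 nM for 6 h (2.24e-05). The labels do not say what the numbers share, and same-numbered libraries deviated together (r 0.464 to 0.677 over 15 pairs of groups, each of 2 numbers only), with a coefficient of biological variation of 0.0678 with the block and 0.163 without. DESeq2 called 3 members at 100 pM for 6 h, size factors gave 0 for the difference between times at 100 pM, and 18 h alone gave 4 at 100 pM; the cause was not tested. Leaving out 1 library at a time gave 16 to 25 members at 10 nM for 6 h, 1 to 1 at 100 pM for 6 h, 14 to 20 between doses at 6 h, 17 to 30 at 10 nM for 18 h, 4 to 9 at 100 pM for 18 h, 15 to 23 between doses at 18 h, 1 to 4 and 0 to 0 for the differences between times at 10 nM and 100 pM, and 0 to 0 for vehicle over time. All 12 omissions kept 55 of the 111 calls. In every comparison with progestin, leaving out a library of a compared group lowered the number called over all genes too. Members of a few counts are limited by depth.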

Other observations

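A gene near ITGA10 was looked at after the peak of ITGA10 at 100 pM was seen, with the distance taken from RefSeq GRCh38.p14. ANKRD35, an ankyrin repeat gene 5342 bases away, had 0.382 and 0.897 CPM in vehicle, 13.9 and 19.1 CPM at 100 pM and 5.40 and 8.80 CPM at 10 nM at 6 h. At 18 h it had 0.252 and 0.948 CPM in vehicle, 9.92 and 14.2 CPM at 100 pM and 2.41 and 4.10 CPM at 10 nM. The 100 pM libraries were highest at both times and did not overlap the others. ANKRD35 rose at 100 pM (4.68 ± 0.60 at 6 h and 4.31 ± 0.60 at 18 h, edgeR adjusted p 0.00303 and 0.00317), and these calls held with any 1 library left out. Between doses it was lower at 10 nM at 18 h (-1.88, edgeR adjusted p 0.0263), a call lost without 10 nM 1 or 100 pM 3 (adjusted p 0.12 to 0.15), and the difference at 6 h missed the threshold (-1.21, edgeR adjusted p 0.0848).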
